A study of Homo sapiens with 9 samples.

Results

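The comparison described here sets 3 RNA-seq libraries of HCT116, a long-established line of human colorectal carcinoma cells, against 3 others, over the 14725 of 60651 gene rows whose mean over these 6 libraries reached 1 CPM (counts per M counts of the TMM-scaled library, M for mega). The sides are the libraries that the authors' 2 deposited comparison tables treat as "shCTRL V" and as "shDAT D", called the V trio and the DAT trio below. Neither deposited table compares these sides directly, since both were computed against one more trio, "shCTRL D". The series asks what knocking down SLC6A3, the gene of the dopamine transporter, does in these cells, and its labels give 3 groups of 3 libraries. One group carried a control hairpin and the solvent DMSO (shCTRL DMSO), another a hairpin against SLC6A3 and DMSO (shSLC6A3 DMSO), and the last the control hairpin with a treatment given only as VXN (shCTRL VXN).

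The titles and the deposited tables disagree on what the libraries received. By its titles, the V trio is replicate 3 of shCTRL DMSO, replicate 1 of shSLC6A3 DMSO and replicate 3 of shCTRL VXN, whose title alone spells the treatment VNN. By its titles, the DAT trio is shCTRL DMSO replicates 1 and 2 and shCTRL VXN replicate 1. The trio that the tables use as control is, by its titles, shSLC6A3 DMSO replicates 2 and 3 and shCTRL VXN replicate 2. Values are given in these orders throughout, and no group name is taken as settled. When DESeq2 was rerun on the trios, 38907 of 38907 p-values in each deposited table were recovered within 1e-06, and grouping by the titles recovered 0 in the shCTRL V table and 547 (1.41%) in the shDAT D table. The trios were chosen by that match, which rests on the same counts, so every difference between them below is a description and carries no test.

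SLC6A3 itself could not check either naming. Its raw counts were 2, 3 and 2 in the V trio, 6, 2 and 0 in the DAT trio and 1, 0 and 3 in the other libraries, where 3 counts is the limit that a count of 0 allows. The libraries held 42.12, 46.43 and 47.59 M counts in the V trio and 51.03, 44.58 and 30.25 M counts in the DAT trio. Over the genes compared, log2 CPM correlated at 0.992 to 0.998 between libraries within the V trio, at 0.996 to 0.998 within the DAT trio and at 0.921 to 0.931 across them. These are correlations across genes, which are not independent replicates. Of the cell markers, 16 of 20 epithelial and colon genes were measured, and none of 15 leukocyte and endothelial genes reached 1 CPM. EPCAM, an epithelial adhesion protein, stood at 342, 339.5 and 328 CPM in the V trio and 334, 344 and 355 CPM in the DAT trio.

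Several regulatory systems are used below to order the genes. When sterols in the endoplasmic reticulum membrane run low, the SREBP factors are cut free, enter the nucleus and switch on genes of cholesterol synthesis and uptake, while INSIG proteins hold them back when sterol is plentiful. E2F factors drive genes of DNA replication as a cell leaves G1. The MuvB complex with B-MYB and FOXM1 drives genes of mitosis later, through TTTGAA elements near their starts. CCAAT boxes near the same starts are bound by NF-Y. Immediate early genes such as FOS and EGR1 are switched on within minutes of growth factor signalling through ERK, without new protein synthesis, and their short-lived messengers soon fade. In colorectal cancer lines all of these systems are usually active to some degree.

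A gene was called where edgeR's quasi-likelihood fit gave a Benjamini-Hochberg adjusted p below 0.05. By this rule 5720 genes (38.8%) were higher in the V trio and 5395 (36.6%) were lower, with 3609 not called. With a difference of at least 2-fold added, 1014 genes (6.89%) were higher and 1528 (10.4%) were lower, and the libraries of the trios did not overlap in 1000 and 1526 of them. Differences of 8-fold or more were found in 60 genes on the higher side and 69 on the lower. Across all genes compared the median log2 difference was 0.02, and the trios did not overlap for 78.4% of genes. The median SD of log2 CPM between libraries was 0.078 in the V trio and 0.066 in the DAT trio. Because the grouping used these counts, nothing is read from the shares themselves. At the level threshold, OLAH (mean 1.001 CPM) and ZNF321P (1.003 CPM) lay just inside, and SNORD26 (0.9996 CPM) and OR2A9P (0.999 CPM) just outside.

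**Figure D1:**
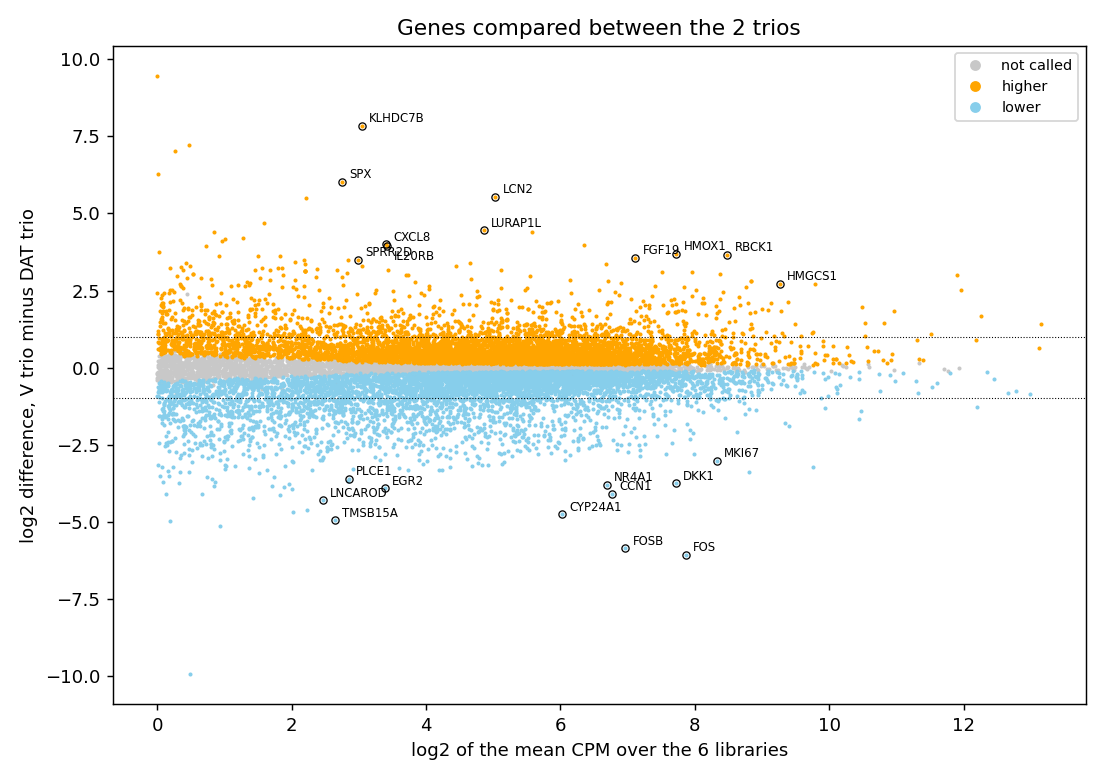
Each point is a gene: the horizontal axis is the log2 of its mean CPM over the 6 libraries, the vertical axis the log2 difference of the V trio minus the DAT trio, with dotted lines at 2-fold. Colours mark the 5720 genes called higher, the 5395 called lower and those not called, and circles mark HMGCS1, MKI67 and the 10 highest and 10 lowest named genes, from KLHDC7B at 7.84 to FOS at -6.08.

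HMGCS1, MKI67 and FOS stand for the patterns that recur below. HMGCS1 (ENSG00000112972.15, chr5:43289395-43313512, minus strand, GRCh38), the enzyme that makes HMG-CoA for the mevalonate pathway, was at 1132, 1143 and 919.7 CPM in the V trio and 153, 157 and 184 CPM in the DAT trio. All V libraries were above all DAT libraries, by 6.56-fold (log2 2.71, SE 0.13, n = 3 and 3, where SE comes from the spread of log2 CPM between libraries). MKI67 (ENSG00000148773.14, chr10:128096659-128126385, minus strand), which encodes the proliferation antigen Ki-67, was at 73.8, 72.6 and 61.1 CPM against 613, 583 and 519 CPM. It was lower in every V library, by 8.16-fold (log2 -3.03, SE 0.11). FOS (ENSG00000170345.10, chr14:75278774-75282230, plus strand), a subunit of the AP-1 transcription factor, was at 7.17, 7.28 and 5.70 CPM against 537, 511 and 328 CPM. Again the trios did not overlap, and FOS was 67.6-fold lower in the V trio (log2 -6.08, SE 0.25), with shCTRL VXN replicate 1 the lowest of the DAT libraries.

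In the libraries outside both trios these genes split. HMGCS1 was at 130.2, 129 and 149.7 CPM in shSLC6A3 DMSO replicates 2 and 3 and shCTRL VXN replicate 2, all close to the DAT trio. MKI67 was at 582, 585 and 586 CPM there, again like the DAT trio. FOS was at 4.49, 4.12 and 506 CPM, so that the shSLC6A3 libraries matched the V trio and the VXN library matched the DAT trio. The V trio was thus set apart from all other libraries in HMGCS1 and MKI67, but not in FOS.

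**Figure D2:**
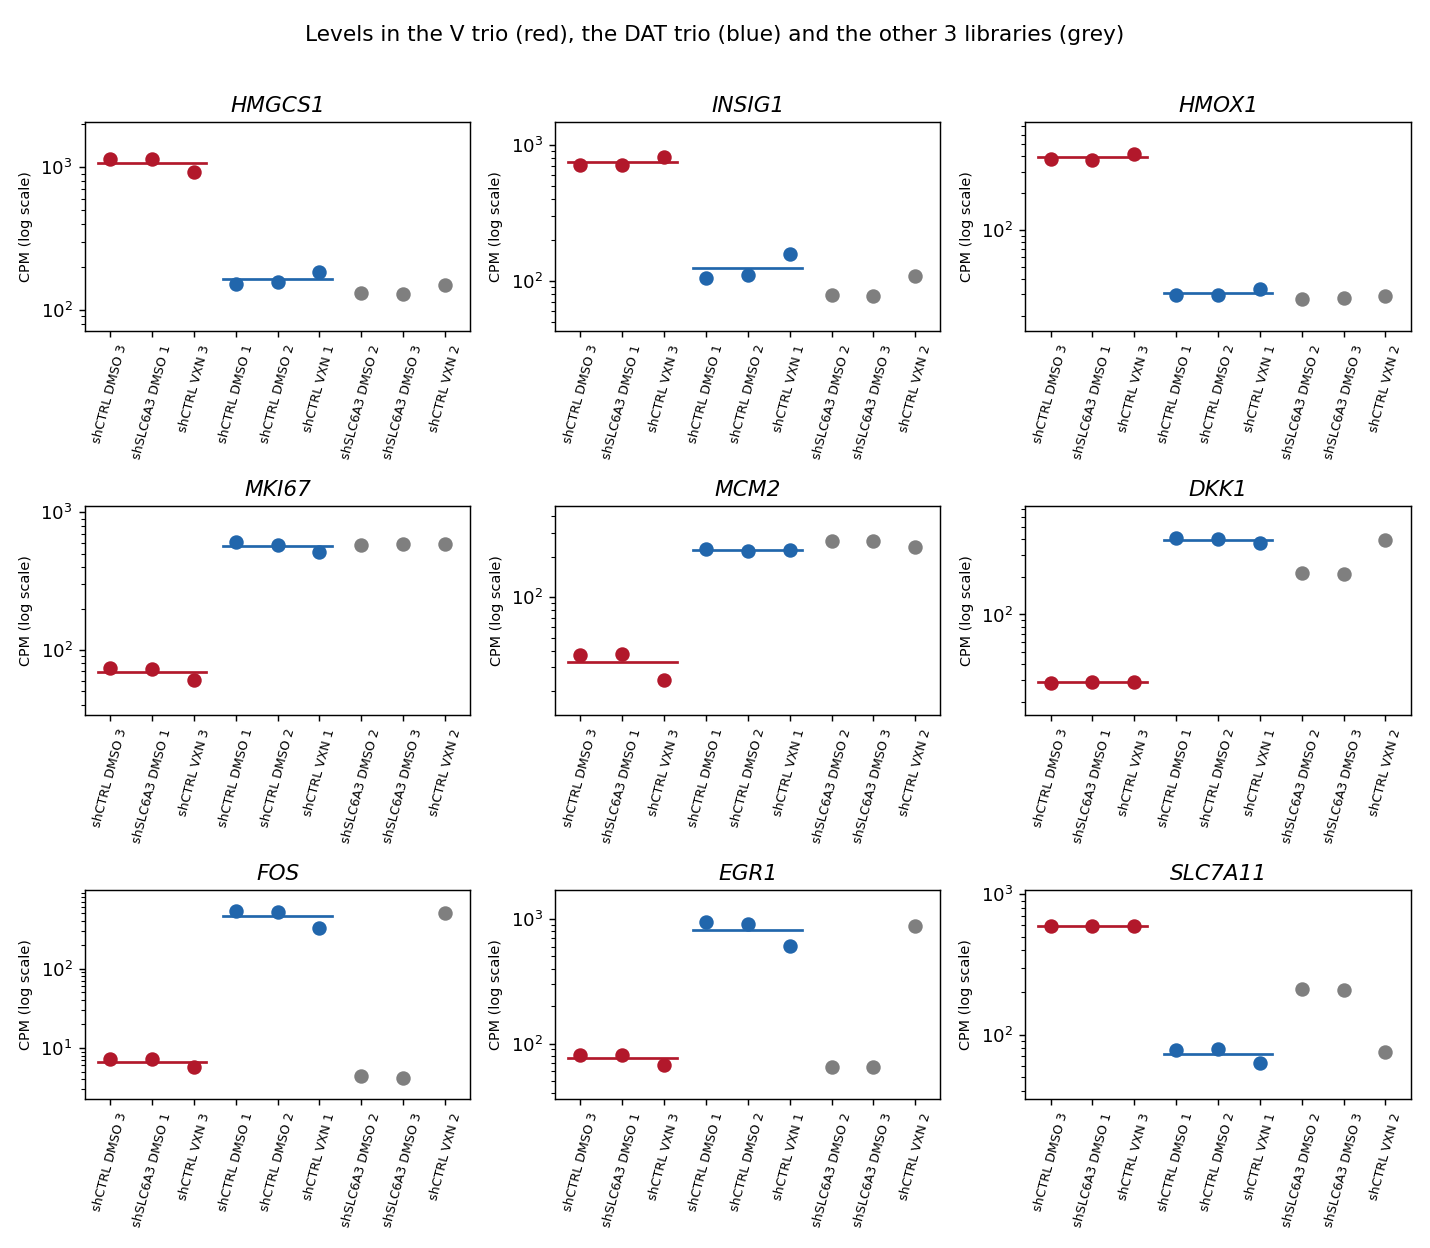
CPM on a log axis in each of the 9 libraries for 9 genes, with the V trio in red, the DAT trio in blue, the other libraries in grey and a line at each trio's mean. HMGCS1, INSIG1 and HMOX1 are high and MKI67 and MCM2 low in the V trio alone, while FOS and EGR1 are low in the V trio and also in shSLC6A3 DMSO replicates 2 and 3.

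Genes of cholesterol synthesis and uptake were higher in the V trio almost without exception. Of 25 genes, 24 were called higher, 23 of them by at least 2-fold, against 38.8% and 6.89% of all genes, and the list's median log2 difference was 2.09. Their summed level was 12044 to 12459 CPM in the V trio and 2788 to 3313 CPM in the DAT trio. PMVK, phosphomevalonate kinase, was the exception, at 13.8, 13.8 and 16.3 CPM against 15.01, 16.5 and 17.8 CPM with overlapping trios, and was called lower without shCTRL VXN replicate 3.

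Within the pathway the differences ran from its first steps to its last. FDFT1, the squalene synthase that commits carbon to sterols, was at 913, 897 and 902 CPM in the V trio and 198, 197 and 252 CPM in the DAT trio, a log2 difference of 2.09 (SE 0.12). MSMO1, which removes methyl groups from the sterol ring, had the largest difference of the list at 2.82 (SE 0.19), with 798, 796 and 799.9 CPM against 99.1, 97.9 and 147 CPM. For both genes the DAT libraries lay together, with shCTRL VXN replicate 1 highest, and far below the V libraries. Between them in the pathway, LSS, which closes the ring to lanosterol, differed by 2.63, and SQLE, which oxidises squalene for that step, by 1.70. ACAT2, which makes acetoacetyl-CoA at the start of the route, differed by 2.66, and MVD, the decarboxylase of the mevalonate steps, by 2.52.

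Genes of sterol transport and control were higher as well. STARD4, which carries cholesterol between membranes, was at 314, 325 and 343 CPM against 85.7, 90.7 and 109 CPM (log2 1.81, SE 0.11). INSIG1, the feedback protein that retains SREBP, was at 706, 706 and 809.9 CPM against 104, 110.1 and 156 CPM (log2 2.61). The carrier and the feedback protein therefore stood on the same side, with no overlap between trios. SREBF2, the gene of SREBP2 itself, differed less, by 0.61 (SE 0.06), and SREBF1 was not called, at 0.11 (SE 0.04), but was with no filter on low counts.

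The promoters of these genes are shown because the list moved together and shares a short sequence element. RefSeq promoters (GRCh38.p14, 300-base windows around the start) were matched by symbol for 18 of the 25 genes, and CCAAT, the box bound by NF-Y, was found on either strand in 15 of them (83.3%). The same letters occur in 35.7% of all 27305 promoters and in 36.9% of the 10254 promoters of genes compared here. They stand in 38.7% of promoters of genes 2-fold higher and in 42.8% of those 2-fold lower, and thus do not mark the higher side. CACCCCAC, a form of the sterol element, was found in 1 of the 18 (5.56%) and in 2.72% of all promoters. In HMGCS1 the box stands on the opposite strand at -155 and -100 relative to the start. A match is a description of letters and not a binding site. In the stretches that follow, 5′ to 3′ on the gene's strand, capitals mark CCAAT or its reverse complement ATTGG, for STARD4 (chr5:111512649-111512708, minus), INSIG1 (chr7:155297696-155297724, plus) and LSS (chr21:46228908-46228936, minus).
STARD4: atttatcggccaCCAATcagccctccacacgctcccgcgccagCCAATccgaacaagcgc
INSIG1: cgccggcctcccATTGGttgcggccgcct
LSS: cgcggcgctctgATTGGttgcgtgggcgt

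Fatty acid genes, which SREBP1 also serves, were higher in part. Of 18 genes, 15 were called higher and 2 lower, with 7 and 1 at 2-fold, and the median was 0.66. Of all genes 38.8% were higher and 36.6% lower, with 6.89% and 10.4% at 2-fold. ACSS2, which makes acetyl-CoA from acetate, differed most, at 417, 416 and 501 CPM against 49.5, 47.97 and 62.04 CPM (log2 3.09, SE 0.15). SCD, the desaturase that makes oleic acid, was at 7154, 7164 and 7965 CPM against 2249, 2246 and 2537 CPM (log2 1.68). FASN, fatty acid synthase, was 1.09 apart, whereas ACACA, which commits carbon to the route, was only 0.19 apart, a call lost when all 9 libraries were fitted. HACD3, a dehydratase of chain elongation, lay on the other side at -1.07.

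Sterol efflux genes and genes that LXR receptors switch on when sterol is plentiful did not share the direction as a list. Of 9 measured among 10 sterol efflux and LXR genes, 4 were called higher and 5 lower, with 0 and 2 at 2-fold, beside 38.8%, 36.6%, 6.89% and 10.4% of all genes. The 2 at 2-fold, ABCG1 and ABCG2, had means of 1.43 and 2.25 CPM near the level threshold, and 0 were left with a mean of at least 5 CPM. ABCG1, a cholesterol exporter, was at 0.624, 0.413 and 0.908 CPM against 2.15, 2.28 and 2.23 CPM (log2 -1.75, SE 0.31), low in all libraries but without overlap. MYLIP, a ubiquitin ligase, differed by -0.42 and LPCAT3 by -0.41. The 4 called higher were SMPDL3A (0.82), the receptor gene NR1H2 (0.75), NCEH1 (0.22) and SOAT1 (0.15). ABCA1, which fell under the level threshold with a mean of 0.805 CPM, was lower in the V trio, at 0.235 against 1.37 CPM on average.

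Of 24 lysosome and autophagy genes, 17 were called higher in the V trio and 5 lower, with 8 and 0 at 2-fold and a median of 0.55. The shares of all genes were 38.8% and 36.6%, and 6.89% and 10.4% at 2-fold. SQSTM1, the cargo receptor p62, was at 1519.5, 1527 and 1544 CPM against 235, 231 and 244 CPM, a log2 difference of 2.71 (SE 0.02) with libraries of each trio within a narrow range. MAP1LC3B, which coats autophagosomes, differed by 2.11, and WIPI1, which helps form them, by 2.13. NPC1, which moves cholesterol out of lysosomes, was 1.68 higher, while its partner NPC2 was -0.39. CTSB, a lysosomal protease, was on the lower side at -0.30.

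Mitosis and DNA replication genes were lower in the V trio without exception. All 22 mitosis genes and all 24 replication genes were called lower and were at least 2-fold apart, against 36.6% and 10.4% of all genes, with medians of -2.36 and -2.37. Summed CPM was 606.5 to 729.8 in the V trio and 3415 to 3717 in the DAT trio for mitosis, and 682.9 to 871.1 against 3907 to 3989 for replication. In bulk RNA, fewer cells in a phase and less RNA per cell cannot be told apart.

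The mitosis genes covered entry, spindle and exit. CDK1, the kinase that drives entry into mitosis, was at 24.2, 26.3 and 20.8 CPM against 139, 152 and 154 CPM (log2 -2.62, SE 0.11). Its partner CCNB1 differed by -2.10, and PLK1 and AURKA, kinases of spindle assembly, by -2.11 and -2.22. CENPF, a kinetochore protein, was at 41.1, 41.98 and 34.5 CPM against 255, 263 and 235 CPM (log2 -2.66). The least different member, TPX2, which nucleates spindle microtubules, was still -1.86. In this list shCTRL VXN replicate 3 was the lowest V library for CDK1, CENPF and MKI67.

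Replication genes ran from origin licensing to nucleotide supply. MCM2, part of the replicative helicase, was at 37.2, 37.5 and 23.99 CPM against 229, 219.8 and 223 CPM (log2 -2.75, SE 0.21). MCM10, which helps activate that helicase, had the largest difference at -3.05 (SE 0.26), with 9.04, 8.76 and 5.17 CPM against 65.1, 63.7 and 63.2 CPM. RRM2, the ribonucleotide reductase subunit made in S phase, was at 70.4, 72.7 and 44.03 CPM against 438, 445 and 452 CPM (log2 -2.82). In all of them shCTRL VXN replicate 3 was the lowest library, and the V trio spread more than the DAT trio. PCNA, the sliding clamp, differed by -1.84, and CDC6, a licensing factor, by -1.22, the smallest of the list.

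G1 to S regulators went both ways, also within families. Of 24 measured among 25, 18 were called lower and 4 higher, with 12 and 2 at 2-fold, where all genes had 36.6% and 38.8%, and 10.4% and 6.89%. Among the E2F factors E2F2 (-3.32), E2F8 (-3.22), E2F1 (-2.56) and E2F7 (-1.02) were lower, while E2F3 (-0.02) and E2F4 (0.02) were not called. The B-MYB gene MYBL2 (-2.99) was lower. Cyclins E2 (CCNE2, -2.71) and A2 (CCNA2, -2.39) were lower too. CCNE1 (-0.35) and CCND3 (-0.52) were lower by less, while cyclin D1 (CCND1) was higher at 0.71. CDKN2B, the CDK4 and CDK6 inhibitor p15, was at 75.7, 72.7 and 99.7 CPM against 10.02, 10.7 and 11.4 CPM (log2 2.97, SE 0.15). CDKN1A, the inhibitor p21, was at 518, 511 and 574 CPM against 206, 192 and 188 CPM (log2 1.47). Both inhibitors were higher in each V library than in any DAT library, and CDKN2C, the inhibitor p18 and itself an E2F target, was lower at -2.71.

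Promoters of the lower cell cycle genes are shown for the elements named above. Of 18 mitosis promoters matched, 16 held CCAAT (88.9%) and 13 held TTTGAA (72.2%), which stands in 15.4% of all promoters and 9.27% of those of the genes compared. Of 22 replication promoters matched, 8 held the E2F form TTTCCCGC (36.4%, against 1.66% of all and 2.67% of the genes compared) and 5 held TTTGGCGC (22.7%, against 0.659% and 1.12%). CCAAT stood in 14 of these 22 (63.6%), and TTTGAA in 1. In the mitosis stretches capitals mark the TTTGAA element and the CCAAT box, with their reverse complements, and in MKI67 one TTTGAA shares a base with the neighbouring ATTGG. They come from MKI67 (chr10:128126431-128126533, minus), CDK1 (chr10:60778158-60778197, plus), CENPF (chr1:214603089-214603178, plus) and KIF11 (chr10:92593065-92593119, plus), whose product is a spindle motor.
MKI67: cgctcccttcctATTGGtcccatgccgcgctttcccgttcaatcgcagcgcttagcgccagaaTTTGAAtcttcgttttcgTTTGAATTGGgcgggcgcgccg
CDK1: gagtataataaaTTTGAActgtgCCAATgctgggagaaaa
CENPF: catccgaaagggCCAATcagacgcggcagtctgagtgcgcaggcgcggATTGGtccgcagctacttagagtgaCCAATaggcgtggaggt
KIF11: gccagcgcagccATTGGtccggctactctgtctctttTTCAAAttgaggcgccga
In the replication stretches capitals mark only TTTCCCGC, TTTGGCGC and their reverse complements. They come from MCM3 (chr6:52284897-52284928, minus), MCM6 (chr2:135876514-135876607, minus) and PCNA (chr20:5126662-5126693, minus).
MCM3: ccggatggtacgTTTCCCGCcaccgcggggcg
MCM6: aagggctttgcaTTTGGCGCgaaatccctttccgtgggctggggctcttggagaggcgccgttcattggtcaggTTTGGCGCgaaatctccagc
PCNA: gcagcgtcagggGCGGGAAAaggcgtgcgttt

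Immediate early genes held the lowest named genes of the comparison, FOS and FOSB. Of 27 measured among 28, 17 were called lower and 3 higher, with 12 and 0 at 2-fold, and the median was -0.78. Among all genes 36.6% were lower and 38.8% higher, with 10.4% and 6.89% at 2-fold. Besides FOS, FOSB was at 4.25, 4.50 and 3.80 CPM against 286, 279 and 172 CPM (log2 -5.86, SE 0.25). EGR1, a zinc finger factor induced by ERK, was at 81.3, 81.2 and 67.5 CPM against 940.4, 904 and 607 CPM (log2 -3.40, SE 0.22). NR4A1, an orphan nuclear receptor, was at 14.6, 12.8 and 13.5 CPM against 222, 203 and 152 CPM (log2 -3.80). In each, shCTRL VXN replicate 1 was the lowest DAT library and still far above the V trio. EGR2 (-3.91) and CCN1 (-4.10), a secreted matrix protein, were also among the 10 lowest named genes.

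Other members of the same class lay closer together or on the other side. JUN, the partner of FOS, differed by -0.78 and JUNB by -1.18, calls that were lost when all 9 libraries were fitted in 3 trios. JUND, the AP-1 subunit that is expressed more constantly, was higher at 0.91 (SE 0.13), with 389.7, 385 and 499 CPM against 241, 225 and 222 CPM. ATF3, which stress also induces, differed by 0.45, with DAT libraries from 52.4 to 81.2 CPM and a call that was lost in the same fit. FOSL1 and FOSL2 were not called, with -0.14 (SE 0.15) and 0.10 (SE 0.03), although FOSL1 was called lower without shCTRL VXN replicate 1. Of 19 promoters matched in this list, 1 held the cAMP element TGACGTCA and 1 the AP-1 element TGACTCA. In FOS, neither was found in the part of the window upstream of the start. TGACTCA stood in 7.77% of 618 promoters of genes 2-fold higher and in 1.85% of 1083 promoters of genes 2-fold lower, against 2.97% of those of all genes compared.

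Feedback genes of ERK signalling were mixed, with 13 of 22 called higher, 7 lower, and 2 and 4 at 2-fold, against 38.8%, 36.6%, 6.89% and 10.4% of all genes. DUSP1 and DUSP2, phosphatases induced as immediate early genes, differed by -2.15 and -3.33. ERK phosphatase DUSP6 was at 245, 241 and 221 CPM against 223, 223 and 167 CPM (log2 0.23, SE 0.15), a call lost under several other settings, with shCTRL VXN replicate 1 lowest and shCTRL VXN replicate 3 just under the other DAT libraries. EREG and AREG, ligands of the EGF receptor, were 0.87 and 0.36 higher. ETV5, an ETS factor, was 1.36 higher and its relative ETV1 -1.27. The list therefore did not follow the immediate early genes as a whole.

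NRF2 targets, which protect against oxidants, were higher in the V trio in 13 of 18 measured genes, all 13 by at least 2-fold, with 2 lower and a median of 1.86, against 38.8% of all genes higher, 6.89% by 2-fold, and 36.6% lower. HMOX1, which breaks down heme, was at 378, 375 and 420.1 CPM against 29.5, 29.7 and 32.97 CPM (log2 3.69, SE 0.07). FTH1, the ferritin heavy chain, was at 6643, 6638 and 6982 CPM against 1138, 1191 and 1224 CPM (log2 2.53). SLC7A11, the cystine importer, was at 593, 592 and 590.1 CPM against 77.2, 79.2 and 63.02 CPM (log2 3.03, SE 0.10). None of these overlapped between trios. TXNRD1, thioredoxin reductase, differed by 1.97 and GCLM, of glutathione synthesis, by 2.13, whereas ABCC2, a drug exporter, was -0.74.

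Integrated stress response genes, which ATF4 drives when amino acids or protein folding fail, were called higher in 23 of 24 measured, 19 of them by 2-fold, with 0 lower and a median of 1.49. The shares of all genes were 38.8%, 6.89% and 36.6%. The counts of 23 and 19 include NUPR1 (log2 4.09, mean 1.95 CPM). It passed the level threshold only through the V trio, where it is high, so nothing is read from its place in them. TRIB3, a pseudokinase induced by ATF4, was at 326, 328 and 362 CPM against 74.1, 73.9 and 73.4 CPM (log2 2.22, SE 0.05). ASNS, asparagine synthetase, was at 338, 336 and 337 CPM against 95.8, 96.8 and 92.1 CPM (log2 1.85), and DDIT3, the factor CHOP, differed by 2.10. SLC7A5, a leucine importer, was 1.46 higher. ATF4 messenger itself differed less, by 0.82, and PPP1R15A, which reverses the response, was not called at 0.19 (SE 0.23) but was called higher with no filter on low counts, with the titled group as a term, and without shCTRL VXN replicate 3. GDF15, a stress cytokine counted in this list and among the p53 targets, was at 723, 728 and 929 CPM against 119, 119.6 and 109 CPM (log2 2.79).

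Most called genes were higher in the list of endoplasmic reticulum chaperones and lower in the heat shock list, with exceptions in each. In the first, 17 of 22 genes were called higher and 1 lower, 7 higher by 2-fold, with a median of 0.91, where all genes had 38.8%, 36.6% and 6.89%. CALR (0.07) and HSP90B1 (0.02) were among the 4 not called, and SDF2L1 was the lower one. HSPA5, the chaperone BiP, was at 3155, 3157 and 3008 CPM against 863, 863 and 893 CPM (log2 1.85, SE 0.03), and XBP1 differed by 1.45. In the heat shock list 12 of 18 were called lower and 2 higher, DNAJB1 and HSF1, with a median of -0.48, and 36.6% and 38.8% among all genes. The 2 that were lower by 2-fold, beside 10.4% of all genes, became 1 without shCTRL DMSO replicate 1 or without shCTRL VXN replicate 3. HSP90AA1, the inducible cytosolic HSP90, was at 1868, 1873 and 1733 CPM against 3232, 3310.1 and 3363 CPM (log2 -0.84). HSPE1, a mitochondrial chaperonin, differed by -1.32.

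Targets of p53, which is intact in this line, were called higher in 16 of 25 and lower in 4, with 8 and 2 at 2-fold and a median of 0.39. Of all genes 38.8% were higher and 36.6% lower, with 6.89% and 10.4% at 2-fold, and the 2 lower became 1 without shCTRL DMSO replicate 2, without shSLC6A3 DMSO replicate 1 or with the titled group as a term. SESN2 (2.13), TNFRSF10B (1.92) and CDKN1A were among the higher, and several of these also answer to ATF4. MDM2, the feedback ligase of p53, differed by 0.67 (SE 0.01), while DDB2, of DNA repair, was -1.03 and PLK2 -1.14. FAS and FBXW7 were not called, at 0.10 and 0.01. Metallothioneins and zinc transporters held 5 higher and 2 lower among 7 measured of 10 (all genes 38.8% and 36.6%), with MT1E at 279.6, 275 and 203 CPM against 67.6, 66.1 and 66.96 CPM (log2 1.93), although reads of near-identical metallothionein genes may be split. SLC39A10, a zinc importer, was -1.74.

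In the list of hypoxia and glycolysis genes 18 of 25 measured were called lower and 6 higher, with 8 and 1 at 2-fold and a median of -0.74. Among all genes the shares were 36.6% and 38.8%, and 10.4% and 6.89% at 2-fold, and the 1 higher became 2 without shCTRL DMSO replicate 1, shCTRL DMSO replicate 2 or shCTRL VXN replicate 3. LDHA, which turns pyruvate into lactate, was at 286, 282 and 283 CPM against 1013, 1065 and 1121 CPM (log2 -1.89, SE 0.04). PGAM1 and ENO2, enzymes of glycolysis, differed by -1.38 and -1.53, and BNIP3, a hypoxia-induced mitophagy receptor, by -1.31. VEGFA, the vascular growth factor, lay on the other side, at 328, 328 and 356 CPM against 83.9, 79.6 and 83.1 CPM (log2 2.06), and SLC2A1, the glucose carrier, was only 0.29. ANKRD37, a hypoxia marker, was at 1.32, 1.30 and 1.54 CPM against 6.41, 6.85 and 14.7 CPM (log2 -2.70, SE 0.39). The highest DAT value was that of shCTRL VXN replicate 1, which also held the fewest counts. ADM, at a higher level, was likewise highest in it, with 44.0, 45.2 and 58.5 CPM in the DAT trio. BNIP3 was not, with 53.9, 55.8 and 54.4 CPM. The cause was not tested.

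Mitochondrially encoded messengers were called lower in 9 of 13 and higher in 3, against 36.6% and 38.8% of all genes, with a summed level of 35109 to 43003 CPM in the V trio and 54050 to 61576 CPM in the DAT trio. MT-CO2, a subunit of cytochrome oxidase, was at 2922, 2899 and 2324 CPM against 6552, 6354 and 6969 CPM (log2 -1.27). MT-ND6, the only one coded on the other strand, was at 84.2, 87.03 and 179 CPM against 20.2, 21.97 and 54.8 CPM (log2 1.92, SE 0.58), with a VXN library highest in each trio. The ribosomal RNA gene MT-RNR1, named after its values were seen, was at 6785, 6783 and 6707 CPM against 775, 764 and 1033 CPM (log2 2.999).

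Cytosolic ribosomal protein genes differed little, with 8 of 37 called higher, 19 lower, none by 2-fold and a range of -0.48 to 0.46, where 38.8% and 36.6% of all genes were called. Nucleolar genes of ribosome assembly were called lower in 17 of 20 and higher in 1, beside the same 36.6% and 38.8%, with a median of -0.52. FBL, which methylates ribosomal RNA, was at 101, 101 and 109 CPM against 214, 217 and 237 CPM (log2 -1.08), and NPM1, the nucleolar chaperone, differed by -0.70. Their regulator MYC was at 224, 229 and 226 CPM against 494, 456 and 435 CPM (log2 -1.01, SE 0.05), without overlap.

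**Figure D3:**
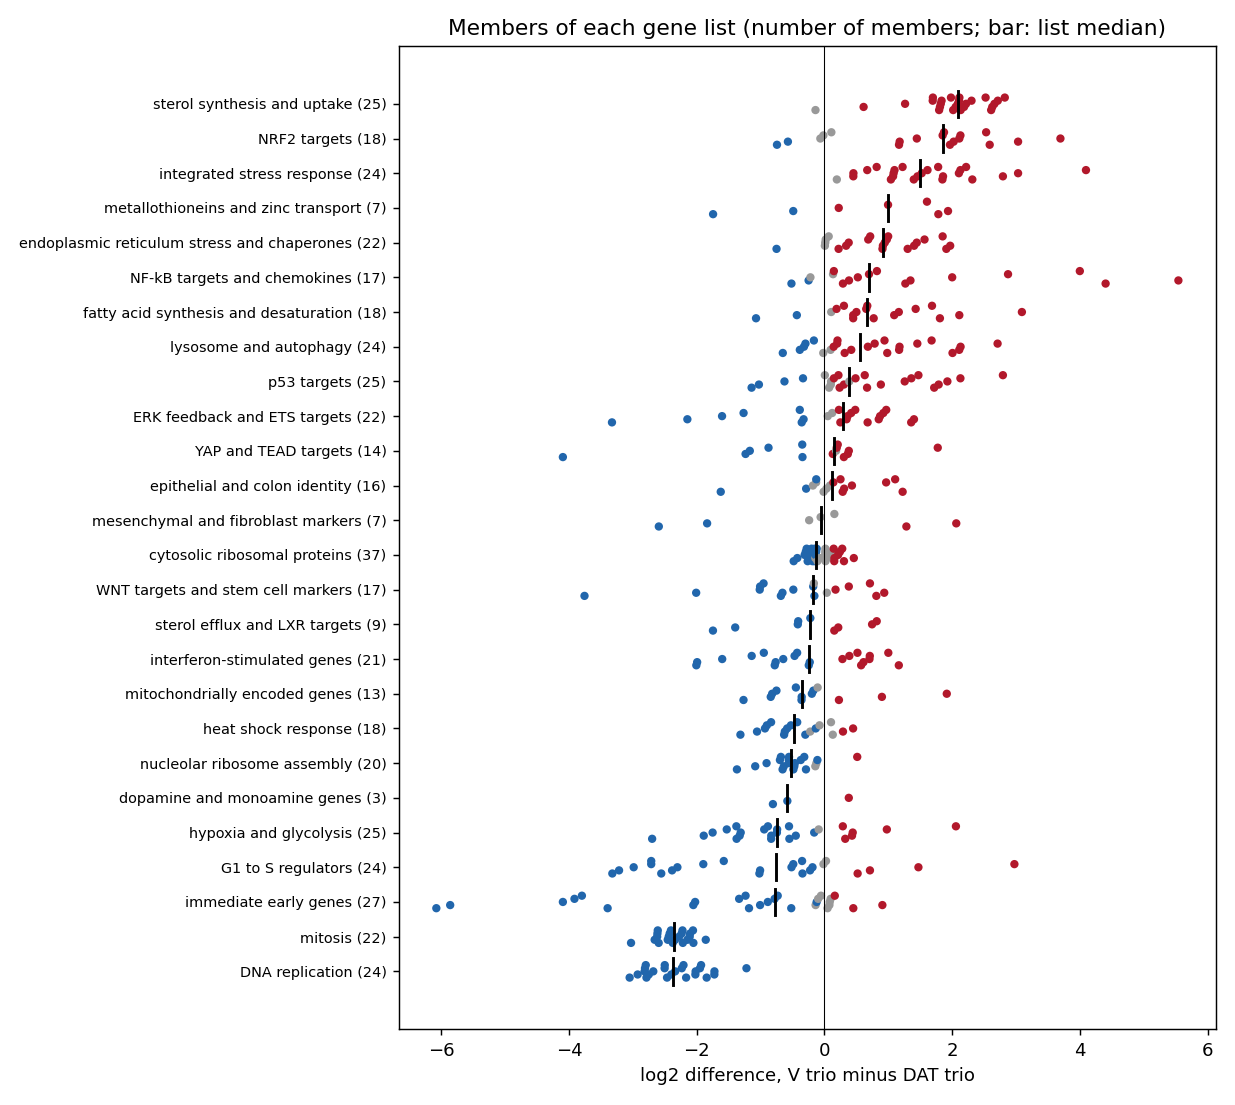
Each point is a gene of a list, placed by its log2 difference of the V trio minus the DAT trio, in red where called higher, blue where called lower and grey otherwise, with a bar at the list's median and lists ordered by it. Medians run from -2.37 for DNA replication and -2.36 for mitosis to 2.09 for sterol synthesis and uptake.

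Among inflammatory genes, 13 of 17 measured NF-kB targets and chemokines were called higher and 2 lower, 7 higher by 2-fold, and among all genes 38.8%, 36.6% and 6.89%. Of the 7, TNFRSF9, CXCL1, CXCL2 and CXCL3 were under 1 CPM in each DAT library and were measured only through the V trio, where they are high, so nothing is read from the count. With a mean of at least 5 CPM, 3 of the 7 were left. LCN2, a siderophore-binding protein, was at 71.9, 70.3 and 49.2 CPM against 0.806, 1.23 and 2.52 CPM (log2 5.54, SE 0.50). CXCL8, a chemokine for neutrophils, was at 20.2, 21.2 and 18.5 CPM against 1.27, 1.01 and 1.61 CPM (log2 3.999). NFKBIA, the NF-kB inhibitor and target, differed by 0.82, and TNFAIP3, another inhibitor, was not called at -0.22 but was called lower with library size alone for scaling. Interferon-stimulated genes split, with 9 higher and 12 lower of 21 measured, beside 38.8% and 36.6% of all genes. OAS3, which senses double-stranded RNA, was at 19.8, 19.5 and 13.9 CPM against 73.4, 70.8 and 70.1 CPM (log2 -1.99), and IRF7 was 1.16 higher.

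Genes of tissue identity and of the WNT and YAP pathways showed no common direction. Beside 38.8% higher and 36.6% lower among all genes, 8 of 16 epithelial genes were called higher and 3 lower. CDH1, which encodes E-cadherin, was higher by 1.11 and the splicing factor ESRP1 by 1.22. The 3 lower were the keratin KRT20 (-1.62), HNF4A (-0.29) and ESRP2 (-0.13). KRT20 had the largest difference of the list, but its mean of 1.30 CPM was near the level threshold. Of 17 WNT targets and stem cell genes 10 were lower and 5 higher. DKK1, a secreted WNT inhibitor, was at 28.5, 28.7 and 28.7 CPM against 405, 401 and 372 CPM (log2 -3.76, SE 0.04). Against that, AXIN2, another WNT target, differed by 0.38 and SOX9 by 0.94. Of 7 mesenchymal genes measured of 17, FN1, fibronectin, was -2.59 and ZEB1 1.28, and VIM was at 1.39, 1.28 and 0.781 CPM and 1.77, 1.30 and 0.95 CPM, near the level threshold in both. YAP targets held 7 higher and 6 lower of 14, not far from the shares of all genes. Of 16 dopamine and monoamine genes 3 reached the threshold, among them MAOA (-0.58) and MAOB (-0.81), which break down dopamine.

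Beyond the lists, the genes with the largest differences on the higher side were KLHDC7B, at 16.4, 14.9 and 18.1 CPM against 0.096, 0.022 and 0.0983 CPM (log2 7.84), SPX, which encodes the peptide spexin (6.03), and LURAP1L (4.46). KLHDC7B (SE 0.38) and SPX averaged 0.0721 and 0.215 CPM in the DAT trio. They passed the level threshold only through the V trio, where they are high, so nothing is read from their rank. RBCK1, a subunit of the linear ubiquitin ligase, was at 653, 649 and 683 CPM against 53.1, 54.2 and 52.8 CPM (log2 3.65, SE 0.03). FGF19, a hormone that restrains bile acid synthesis, was at 252, 248 and 264 CPM against 22.7, 21.7 and 21.4 CPM (log2 3.55). IL20RB, a cytokine receptor chain (3.96), and SPRR2D, a cornified envelope protein (3.49), completed the 10. The rule that picked them skips symbols ending in P and digits. It therefore left out NRP1 (4.41), a semaphorin and VEGF co-receptor, and UPP1 (3.98), uridine phosphorylase, which were named after their values were seen.

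On the lower side, CYP24A1, which inactivates vitamin D, was at 4.10, 4.02 and 5.55 CPM against 131, 129.7 and 116 CPM (log2 -4.76, SE 0.16). PLCE1, a phospholipase bound by RAS, differed by -3.61 and the long noncoding RNA LNCAROD by -4.31. TMSB15A differed by -4.95, with the reservation that it has a near-identical copy. LNCAROD and TMSB15A averaged 0.524 and 0.386 CPM in the V trio. They passed the level threshold only through the DAT trio, where they are high, so nothing is read from their rank. KITLG, the ligand of the KIT receptor, was named after its values were seen for its high level, at 163, 167 and 165 CPM against 1554, 1589 and 1528 CPM (log2 -3.22, SE 0.02). In each of these genes the trios did not overlap.

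The other 3 libraries were then placed between the trios, by whether each was nearer the V or the DAT mean on the log2 scale. Of the 1014 genes 2-fold higher in the V trio, 123 and 121 were nearer the V mean in shSLC6A3 DMSO replicates 2 and 3, and 15 in shCTRL VXN replicate 2. Of the 1528 lower, 267, 276 and 2 were. For the 23 sterol, 22 mitosis and 24 replication genes that were 2-fold apart, the number was 0 in each library. For the 12 immediate early genes it was 11, 11 and 0, and for the 19 integrated stress response genes 10, 9 and 0. For the 9 hypoxia and glycolysis genes it was 6, 6 and 0.

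Single genes show the same arrangement. EGR1 was at 65.5, 65.2 and 881 CPM in shSLC6A3 DMSO replicates 2 and 3 and shCTRL VXN replicate 2. PSAT1, of serine synthesis, was at 607, 604 and 200.1 CPM there, with 694, 688 and 707 CPM in the V trio and 207, 214 and 195 CPM in the DAT trio. TRIB3, also of the integrated stress response list, was at 169, 171 and 76.8 CPM there. Its means were 339 CPM in the V trio and 73.8 CPM in the DAT trio, with the shSLC6A3 libraries between them. HMOX1 was at 27.1, 27.9 and 29.1 CPM, so that all of these libraries were at the DAT level. DKK1 was at 216, 212 and 389.7 CPM, with the shSLC6A3 libraries between the trios. By the tables' names all 3 are the control, shCTRL D, whereas by the titles they come from a knockdown and a treatment.

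**Figure D4:**
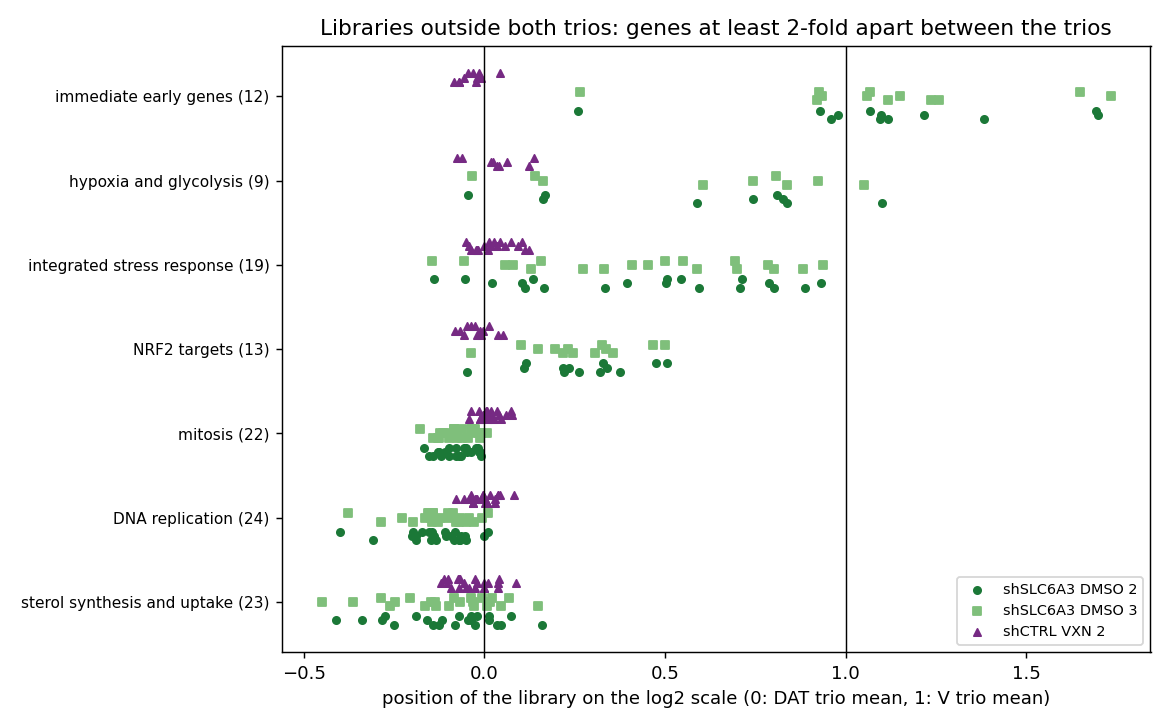
The horizontal axis places each library outside both trios on the log2 scale between the DAT trio mean (0) and the V trio mean (1), for the genes of 7 lists that were at least 2-fold apart. The shCTRL VXN replicate 2 points lie near 0 in every list, while the shSLC6A3 DMSO replicate 2 and 3 points lie near 1 for most of the 12 immediate early genes and near 0 for sterol, mitosis and replication genes.

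Libraries with the same title stood on both sides, so the difference can also be read within a title. Within shCTRL DMSO, replicate 3 of the V trio was 2-fold or more from the mean of replicates 1 and 2 in 2516 of the genes compared, and replicates 1 and 2 of the DAT trio were 2-fold apart in 8. Within shCTRL VXN, replicates 3 and 1 were 2-fold apart in 2616. These within-title differences share no library, and over the genes compared they correlated at 0.943, given as a description across genes. The trios were chosen from these libraries, so nothing about the trios is supported by it. HMGCS1 differed by 2.87 within shCTRL DMSO and 2.32 within shCTRL VXN, MKI67 by -3.02 and -3.09, and FOS by -6.18 and -5.84.

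Some rows of short structured RNA went against this. RN7SL1, of the signal recognition particle, was at 0.983, 2.69 and 30.7 CPM in the V trio and 1.15, 1.21 and 1.61 CPM in the DAT trio. SNORD3A, a small nucleolar RNA, was at 0.456, 0.826 and 23.5 CPM and 0.442, 0.615 and 1.41 CPM. Only shCTRL VXN replicate 3 was high in these genes, which were named after their values were seen, so their mean difference is that of 1 library. Without it SNORD3A differed by -0.20. In all, 98 genes spanned 2-fold or more within the V trio and 89 within the DAT trio.

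**Figure D5:**
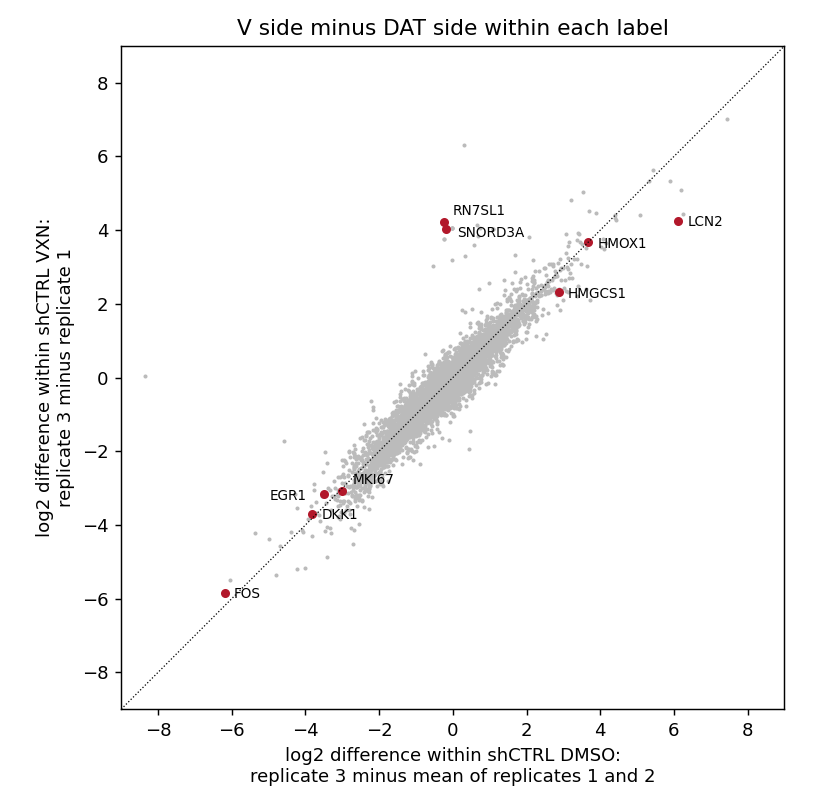
Each point is a gene, with the log2 difference between V and DAT libraries within shCTRL DMSO on the horizontal axis and within shCTRL VXN on the vertical axis, and a dotted line where they are equal. HMGCS1, HMOX1, MKI67, DKK1 and FOS lie near the line, and RN7SL1 and SNORD3A lie above it because only shCTRL VXN replicate 3 is high.

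The comparisons by title are the ones whose groups were not chosen from the counts. Over the 14660 genes with at least 1 CPM over 9 libraries, shSLC6A3 DMSO against shCTRL DMSO called 0 genes (0%) in edgeR's quasi-likelihood test, with 602 at an unadjusted p under 0.05 and 0 in DESeq2. For shCTRL VXN against shCTRL DMSO 1 gene was called (0.00682%), with 165 at an unadjusted p under 0.05 and 14 in DESeq2. That gene was the microRNA row MIR6797, with a log2 difference of -2.82 and an adjusted p of 0.0441 in edgeR. The call was lost when any 1 of the shCTRL libraries was left out. The 602 and 165 genes at an unadjusted p under 0.05 are fewer than that cutoff would pass on average if no gene differed. Each titled group holds libraries from more than 1 trio, so HMGCS1 and MKI67 vary widely within every group. FOS does so only within shCTRL DMSO and shCTRL VXN. In shSLC6A3 DMSO the libraries outside the V trio held FOS at 4.49 and 4.12 CPM, beside a V trio mean of 6.72 CPM. Without both shCTRL VXN libraries of the trios, the difference between V and DAT held 6095 genes higher and 5721 lower.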

How the data were processed

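RNA-seq of 9 HCT116 libraries used the TruSeq RNA v2 kit, per the labels' protocols. The submitters' processing notes name fastp 0.20.1, FastQC 0.11.9, STAR without a version, DESeq2 1.34.0 and GRCh38. Which program counted reads, and on which annotation, is not given in the sources used here. Raw counts for genes and repeat subfamilies make up the authors' deposited table. The authors' deposited log2 fold changes and their p-values were made by DESeq2, and only the p-values were used, to check which libraries stand behind each table.

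Members and lists were chosen with earlier results of these data known. Counts of the 6 libraries were fitted with edgeR 4.0.16 (quasi-likelihood, TMM, filterByExpr, R 4.3.3) over 18901 genes and 895 repeat subfamilies together. Printed CPM were scaled by TMM over 9 libraries. Among the members 10 rows are Y copies of pseudoautosomal genes also listed on X. RNU4-2 passed 1 CPM but not the filter. The fit was tested on simulated data in which few features changed, equally in both directions. That simulation did not test scaling where most genes differ, as they do here. DESeq2 1.42.0 was the alternative. Named genes were HMGCS1, MKI67, FOS and SLC6A3, the 10 highest and 10 lowest called genes with at least 5 CPM whose trios did not overlap, and per list the 3 with the highest mean and the 3 with the largest difference. Other list members were named for their roles after their values were seen. Some genes of these lists are not reported here. No label says that replicates were separate cultures, so p-values measure the spread between libraries, which may be technical. Positions came from GENCODE 29 (14614 of 14715 gene IDs) and promoters from RefSeq.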

Additional observations from a re-analysis of the deposited data

Results flagged for a closer look

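HSP90B1 and CALR, chaperones of the endoplasmic reticulum, and RN7SL1 went opposite ways within the titles. On the log2 scale HSP90B1 was 0.0405 apart within shCTRL DMSO and -0.0901 within shCTRL VXN (V minus DAT libraries). CALR was 0.080 apart within shCTRL DMSO and -0.0381 within shCTRL VXN. RN7SL1 was -0.25 apart within shCTRL DMSO and 4.22 within shCTRL VXN. The differences between titles were not tested.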

How the results depend on the processing

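Under 14 other settings the V trio held 4823 to 6095 genes higher and 4380 to 5897 lower, all within 1.5 times the counts given. With library size alone for scaling, 46.6% of called genes were higher. Of the 2542 genes called at 2-fold, 2524 to 2542 were called the same way. The sign changed in 3 without shCTRL VXN replicate 3 and in 2 without both VXN libraries of the trios, a setting chosen after seeing the data. In the fit of all 9 libraries in 3 trios ACACA, ATF3, JUN and JUNB lost their call at log2 differences of 0.19, 0.46, -0.77 and -1.18, close to those given. DUSP6, IER3, KRT8 and SOAT1, with differences of 0.14 to 0.23, lost theirs under several settings. RN7SL1 and SNORD3A lost theirs without shCTRL DMSO replicate 1 or 2 and without shCTRL VXN replicate 3, where RN7SL1 went from 3.18 to 0.55. Under some settings CALR, COL1A1, FOSL1, HSP90B1, HSPA8, PHLDA1, PMVK, PPP1R15A, RPL4, SREBF1 and TNFAIP3 gained a call. Where a list count at 2-fold in the report moved by over 1.5 times, the other value stands beside it. SNORD3A ranged from -0.20 without shCTRL VXN replicate 3 to 4.04 without shCTRL DMSO replicate 3. For shCTRL VXN against shCTRL DMSO, the 1 gene called became 14 in DESeq2, 0 without a filter on low counts and 0 with a replicate block. It became 0 when each shCTRL library was left out in turn. The cause was not tested. For shSLC6A3 DMSO against shCTRL DMSO the count was 0 throughout, also with the replicate block. Same-numbered libraries deviated together at -0.822 to 0.956. The negative values were those of pairs with only 1 library in the V trio, so these values cannot show whether the numbers mark pairing. The numbers were not taken as pairing. No paired analysis was possible for the trios because they share only replicate number 1. Genes near 1 CPM rest on few counts, fewest in shCTRL VXN replicate 1.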
